A study of Homo sapiens with 6 samples.

Results

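The step from 75 to 150 µg/ml of AF-EAE was compared in MDA-MB-231 cells, an established human triple-negative breast cancer line, after 24 h. AF-EAE is made from the plant Antenoron filiforme by extraction with ethyl acetate, and no label gives what it contains. The comparison takes the 2 libraries labelled 75 µg/ml and the 2 labelled 150 µg/ml, which are 4 of the 6 libraries in the series. The other libraries are the solvent control, DMSO alone for 24 h. Cells of all groups were unmodified (labelled WT) and were grown in DMEM with fetal bovine serum. From 0 to 75 and from 75 to 150 µg/ml the same amount of extract was added, so that the first step (75 µg/ml against DMSO) and the second step (150 against 75 µg/ml) can be set side by side for each gene. The study's title is about proliferation and the axis of SKP2 and P21; the second step asks which transcripts moved only at the higher dose, which had already levelled off, and which turned back.

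As background, a dividing cell first switches on genes of DNA replication under E2F factors and later genes of mitosis under FOXM1 and B-MYB, and p21 (CDKN1A) restrains the kinases that drive both. Cells short of amino acids, or with unfolded protein in the endoplasmic reticulum or impaired mitochondria, translate ATF4, which raises genes of amino acid supply, while NF-kB raises cytokine genes and their own inhibitors. Immediate early genes such as EGR1, JUN and FOS answer within minutes to growth factor and stress kinases, and many of their products feed back on those kinases.

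Counts in genes ran from 15621103 to 16407218 in the 4 dose libraries, and 3 counts in a library equal 0.183 to 0.192 CPM (counts relative to library size). Levels below are CPM scaled by TMM, and library values are given in the order replicate 1, replicate 2. Libraries of a group correlated at 0.990 to 0.991 over log2 CPM across genes, against at most 0.987 between groups. Leukocyte markers summed to 0.196 to 0.484 CPM per library, with PTPRC, CD3E and MS4A1 at 0 in all 6 libraries. The labelled cell type is epithelial. Of 18 epithelial markers, 6 lay under 1 CPM in all 6 libraries, among them CDH1, between 0 and 0.121 CPM. KRT8 lay between 283 and 531 CPM and KRT18 between 95.8 and 187 CPM. Epithelial markers summed to 854 and 838 CPM at 75 µg/ml and to 769 and 733 CPM at 150 µg/ml, and of the 12 tested 2 were higher and 4 lower in the second step. The mesenchymal markers VIM, CD44 and AXL were abundant, while 3 of the 12 in that list, CDH2, TWIST1 and TWIST2, lay under 1 CPM in all libraries. The sum of the mesenchymal list was 2547 and 2497 CPM at 75 µg/ml and 1942 and 1994 CPM at 150 µg/ml. The titles number the libraries of each group as biological replicates 1 and 2, but no label says whether these are separate cultures. P-values therefore reflect only how far these libraries differ, which may be technical. Adjusted p below comes from edgeR (quasi-likelihood F-test, Benjamini-Hochberg) over all 15589 genes tested, and a gene is called changed at an adjusted p under 0.05.

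Between 75 and 150 µg/ml, 57 of 62 tested mitosis genes, 12 of 13 protein genes of the mitochondrial genome, 24 of 42 collagen, matrix and integrin genes and 15 of 25 glycolysis genes were lower, while 0, 0, 2 and 4 of these lists were higher. Of 34 ATF4 targets 28 were higher and none lower, 21 of 38 immediate early genes were higher and 2 lower, and 12 of 29 NF-kB and cytokine genes were higher and 6 lower. Of 15589 genes tested, 3433 were called (22.0%), 1482 higher (9.51%) and 1951 lower (12.5%) at 150 µg/ml. The median size of a called change was 0.35 on the log2 scale, and 130 genes rose and 96 fell by 1 or more. The libraries of the 2 doses did not overlap in any of the 1482 higher genes and in 1945 of the 1951 lower ones, beside 60.6% of all tested genes. The first step called 6015 genes (38.6%). Scaling by total counts moved the median of all genes by 0.061 in the second step and by 0.13 in the first, and it gave 2206 genes higher and 1345 lower in the second step. At 150 µg/ml, replicate 1 lay further from the mean of the 75 µg/ml libraries than replicate 2 in 72.6% of the higher and 72.5% of the lower genes. The count was 1490 without that library and 1984 without replicate 1 at 75 µg/ml.

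The difference between the steps was itself tested, and 2068 genes (13.3%) had a second step that differed from the first, 914 upwards (5.86%) and 1154 downwards (7.40%; 666 and 1594 under total counts). Steps are compared here and below as log2 ratios. An equal gain in CPM at each step therefore gives a smaller second step, and an equal loss a larger one. Both steps use the 75 µg/ml libraries, with opposite signs, so the classes that follow are counts of a rule and not independent findings. Changed further describes 1736 genes (11.1%) that were called in the same direction in both steps, 685 rising (4.39%) and 1051 falling (6.74%; 1214 and 592 under total counts). Among these, the second step was steeper in 34 genes and shallower in 281. The median rise of genes that went on rising was 0.53 in the first step and 0.38 in the second, and the median of those that went on falling was -0.41 and -0.32. Only between doses describes 157 genes (1.01%): the second step was called, the first was not and its 95% interval lay within 0.32 of 0 on the log2 scale, and the difference between the steps was called. Levelled off describes 657 genes (4.21%) with the mirror pattern, a called first step, a second step with its interval inside the same bounds, a called difference between the steps and a called total. Turned back describes 352 genes (2.26%) that were called in opposite directions in the 2 steps. A further 1689 genes passed the test only for 150 µg/ml against DMSO, in neither step alone.

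**Figure D1:**
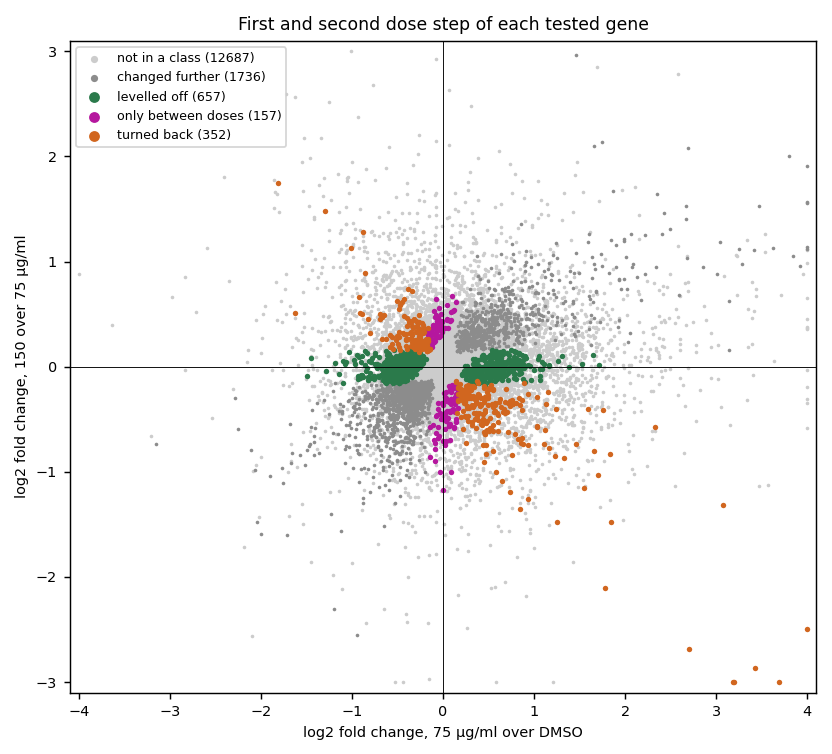
Log2 fold change of each tested gene in the first step (75 µg/ml over DMSO, horizontal) and in the second step (150 over 75 µg/ml, vertical), with values beyond 4 and 3 drawn at the edge. The 657 levelled-off genes lie along the horizontal axis, the 157 genes that changed only between doses along the vertical axis, and the 352 that turned back in the upper left and lower right.

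The gene pair in the series title moved in both steps. SKP2, which encodes the F-box subunit of an SCF ubiquitin ligase that marks cell cycle inhibitors for degradation, was at 89.6 and 96 CPM in DMSO, then 51.2 and 54 at 75 µg/ml, then 35.7 and 38.4 at 150 µg/ml. Each dose lay below the one before it without overlap. Its second step was -0.50 (SE 0.0762) on the log2 scale (edgeR adjusted p = 0.00014), and it did not differ from the first step of -0.82 past the threshold (adjusted p = 0.12). CDKN1A, the gene of p21, was at 117 and 118 CPM in DMSO, then 273 and 262 at 75 µg/ml, then 492 and 456 at 150 µg/ml, a second step of 0.83 (SE 0.0493, edgeR adjusted p = 8.5e-09). On the log2 scale the second step was smaller than the first, with a difference of -0.36 (edgeR adjusted p = 0.011). In CPM the gain was not smaller, with means of 118, 267 and 474 in DMSO, at 75 and at 150 µg/ml. SKP2 (ENSG00000145604.17) lies at chr5:36151989-36184319 on the plus strand and CDKN1A (ENSG00000124762.14) at chr6:36676460-36687339 on the plus strand (hg38). Around the pair, 7 of 14 tested genes of the axis were lower at 150 than at 75 µg/ml and CDKN1A was higher. CCND1, the gene of cyclin D1, was at 530.0 and 511 CPM at 75 µg/ml against 328 and 363 at 150 µg/ml, a change of -0.59. CDK6, its kinase partner, had a first step of -1.18 and a second step of -0.16, and the difference between the steps was called. The count of 7 was 3 under total counts, 3 without either library at 75 µg/ml or without replicate 1 at 150 µg/ml, and 4 without replicate 2 at 150 µg/ml. The cyclin E genes CCNE1 and CCNE2 had fallen in the first step and were not called in the second (0.13 and 0.21).

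Genes of mitosis fell as a body between the doses. Of 62 tested members of the mitosis list, 57 were lower at 150 than at 75 µg/ml and none was higher. Their median second step was -0.56 on the log2 scale, beside 0.0004 over all tested genes. In the first step 45 members had fallen, and their median was -0.33, beside 0.015 over all tested genes. The difference between the steps was called downwards in 19 members and upwards in 1, MYBL2, whose fall levelled off. RNA from a mixed culture cannot tell fewer cells in mitosis from less of these transcripts per cell. Genes named here and below that are not among the 70 taken by the naming rule (given with the processing) were chosen after their values were seen.

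KIF20A, which encodes a kinesin of the central spindle, had the largest fall of the list. It was at 196 and 214 CPM in DMSO, then 135 and 128 at 75 µg/ml, then 43.9 and 47.7 at 150 µg/ml. Each group lay below the one before it, and the drop from 75 to 150 µg/ml was larger than the spread within a pair of libraries. Its second step was -1.52 (SE 0.0666) with an edgeR adjusted p of 6.6e-10, and it was steeper than the first step of -0.65 (difference -0.87, adjusted p = 4.6e-05). CCNB1, the gene of cyclin B1, which activates CDK1 for entry into mitosis, was at 357 and 373 CPM in DMSO, then 326 and 313 at 75 µg/ml, then 157 and 163 at 150 µg/ml. Its second step of -1.0 (SE 0.0492) was also steeper than its first of -0.19 (edgeR adjusted p of the difference 9.0e-06). AURKA and PLK1, kinases of spindle assembly, were at 274 and 251 CPM at 75 µg/ml against 122 and 135 at 150 µg/ml and at 102 and 103 CPM at 75 µg/ml against 50.3 and 50.1 at 150 µg/ml respectively. Their second steps were -1.03 and -1.03, each called steeper than the first.

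Within the list, 8 genes changed only between the doses: ASPM, NEK2, UBE2C, TOP2A, CCNB2, TTK, CDK1 and CDC25B, all downwards (8 of 62, beside 0.577% of all tested genes). ASPM, which encodes a protein of the spindle poles, was at 261 and 296 CPM in DMSO, then 245 and 259 at 75 µg/ml, then 132 and 146 at 150 µg/ml. The libraries in DMSO and at 75 µg/ml lay close together, and both at 150 µg/ml lay far below them. Its second step was -0.86 (SE 0.0645, edgeR adjusted p = 8.8e-08), and its first step was -0.14. NEK2, a centrosome kinase gene, was at 62.2 and 61 CPM in DMSO, then 59.5 and 56.6 at 75 µg/ml, then 35.4 and 32.3 at 150 µg/ml, with a second step of -0.78 (SE 0.0774). TOP2A, the gene of the topoisomerase that untangles chromosomes, was at 876 and 918 CPM in DMSO, then 850.1 and 852 at 75 µg/ml, then 522 and 575 at 150 µg/ml, and it held its class in 14 of 14 alternative settings. UBE2C, which encodes the ubiquitin-conjugating enzyme of the anaphase-promoting complex, was at 288 and 269.8 CPM in DMSO, then 279.9 and 287 at 75 µg/ml, then 162 and 176 at 150 µg/ml. CDK1 itself was at 212 and 211 CPM at 75 µg/ml against 154 and 153 at 150 µg/ml, a second step of -0.46. Under total counts 56 members fell, 13 only between the doses, and UBE2C and CDC25B were among 3 that turned back. Leaving out replicate 1 at 75 µg/ml, 56 fell, 3 of them only between the doses.

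The sequences that bear on this group are the promoters of its members, since mitosis genes are known to share a CDE/CHR element bound by a complex of DREAM or B-MYB with FOXM1, and CCAAT boxes bound by NF-Y. Promoters are the 300 bases from 250 before to 50 after the annotated start, from RefSeq (GRCh38.p14), and 27305 were available. The searched letters were TTTGAA and TTTAAA, cores of the CHR element, and CCAAT, on both strands, and no match overlapped another in the promoters shown. Capitals mark these letters, or their reverse complements, in 4 genes with large falls (KIF20A, chr5:138178862-138179161, plus strand; CDCA3, chr12:6851237-6851536, minus strand; CENPA, chr2:26785806-26786105, plus strand; PLK1, chr16:23678639-23678938, plus strand) and in ASPM (chr1:197146620-197146919, minus strand).
KIF20A: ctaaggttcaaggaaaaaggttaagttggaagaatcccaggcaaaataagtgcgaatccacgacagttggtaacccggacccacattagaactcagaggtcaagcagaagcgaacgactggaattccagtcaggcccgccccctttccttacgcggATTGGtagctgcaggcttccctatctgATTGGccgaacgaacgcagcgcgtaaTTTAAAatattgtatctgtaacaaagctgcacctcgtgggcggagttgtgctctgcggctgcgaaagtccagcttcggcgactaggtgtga
CDCA3: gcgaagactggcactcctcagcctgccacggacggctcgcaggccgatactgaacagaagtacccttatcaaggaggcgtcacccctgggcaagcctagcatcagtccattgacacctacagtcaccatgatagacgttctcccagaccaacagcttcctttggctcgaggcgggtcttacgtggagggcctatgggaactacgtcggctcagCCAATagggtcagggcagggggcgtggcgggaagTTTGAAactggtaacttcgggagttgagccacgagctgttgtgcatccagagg
CENPA: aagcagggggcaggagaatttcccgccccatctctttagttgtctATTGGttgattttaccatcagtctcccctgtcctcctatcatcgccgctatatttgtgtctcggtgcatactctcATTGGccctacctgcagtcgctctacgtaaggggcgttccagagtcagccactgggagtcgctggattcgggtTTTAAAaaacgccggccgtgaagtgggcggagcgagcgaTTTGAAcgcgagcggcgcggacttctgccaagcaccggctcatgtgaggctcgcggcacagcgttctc
PLK1: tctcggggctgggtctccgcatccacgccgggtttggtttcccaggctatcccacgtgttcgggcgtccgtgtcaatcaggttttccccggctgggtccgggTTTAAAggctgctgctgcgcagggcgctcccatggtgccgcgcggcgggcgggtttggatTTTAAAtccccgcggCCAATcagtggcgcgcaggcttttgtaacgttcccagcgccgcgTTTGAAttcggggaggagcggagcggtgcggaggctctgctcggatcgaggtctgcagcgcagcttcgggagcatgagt
ASPM: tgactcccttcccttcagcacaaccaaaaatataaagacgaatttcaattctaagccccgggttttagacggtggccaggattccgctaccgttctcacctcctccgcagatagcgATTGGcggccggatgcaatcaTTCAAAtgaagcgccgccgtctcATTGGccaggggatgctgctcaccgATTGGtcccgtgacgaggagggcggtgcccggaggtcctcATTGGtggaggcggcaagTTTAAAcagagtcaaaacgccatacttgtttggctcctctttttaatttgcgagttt
TTTGAA was present in 35 of 53 mitosis promoters with a sequence (66.0%), in 15.4% of all promoters and in 9.75% of those of tested genes. TTTAAA was present in 16 of 53 (30.2%), beside 12.3% and 7.51%. CCAAT was present in 39 of 53 (73.6%), beside 35.7% and 36.2%. In the promoters of DNA replication genes the same letters were found in 1 of 40 (TTTGAA, 2.50%), 3 of 40 (TTTAAA, 7.50%) and 22 of 40 (CCAAT, 55.0%). A match is a description of these letters and not a binding site.

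Genes of the G1/S transition and DNA replication, which had fallen at 75 µg/ml, moved less in the second step. Of 50 tested, 43 had fallen in the first step (median -0.52), while 19 fell and 3 rose in the second (median -0.17). Steps differed upwards, towards less fall, in 23 members and downwards in 1, RPA3. Levelling off held for 7 members (7 of 50, beside 4.21% of all tested genes): MCM2, MCM6, MCM10, CDC45, POLA1, POLE and FEN1, which encode parts of the replicative helicase, the polymerases and the flap endonuclease. MCM6 was at 187 and 192 CPM in DMSO, then 79.1 and 76.9 at 75 µg/ml, then 72.9 and 78.3 at 150 µg/ml. The drop lay wholly between DMSO and 75 µg/ml, and the libraries of the 2 doses overlapped. Its second step was -0.05 (SE 0.0603, edgeR adjusted p = 0.66, not called), with a 95% interval inside the flat bounds, and it differed from the first of -1.28 (adjusted p = 1.3e-06). It kept this class in 14 of 14 alternative settings. Others fell on at a slower pace: UNG, a uracil-DNA glycosylase gene, was at 149 and 148 CPM in DMSO, then 57 and 52.3 at 75 µg/ml, then 40.0 and 42 at 150 µg/ml. CDC6, which loads the helicase, and RPA2, a subunit of the single-strand binding protein, turned back upwards (0.19 and 0.23). Without replicate 1 at 150 µg/ml, 9 members fell in place of 19, and 1 rose in place of 3, as also without replicate 1 at 75 µg/ml. Without this last library 3 members had levelled off, and none turned back without replicate 1 at either dose. Of 33 repair genes of homologous recombination and the Fanconi pathway, 2 were higher and 3 lower in the second step (15.2% called, beside 22.0% of all tested genes, with 1 higher without replicate 1 at either dose and 1 lower without replicate 2 at 75 or replicate 1 at 150 µg/ml).

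**Figure D2:**
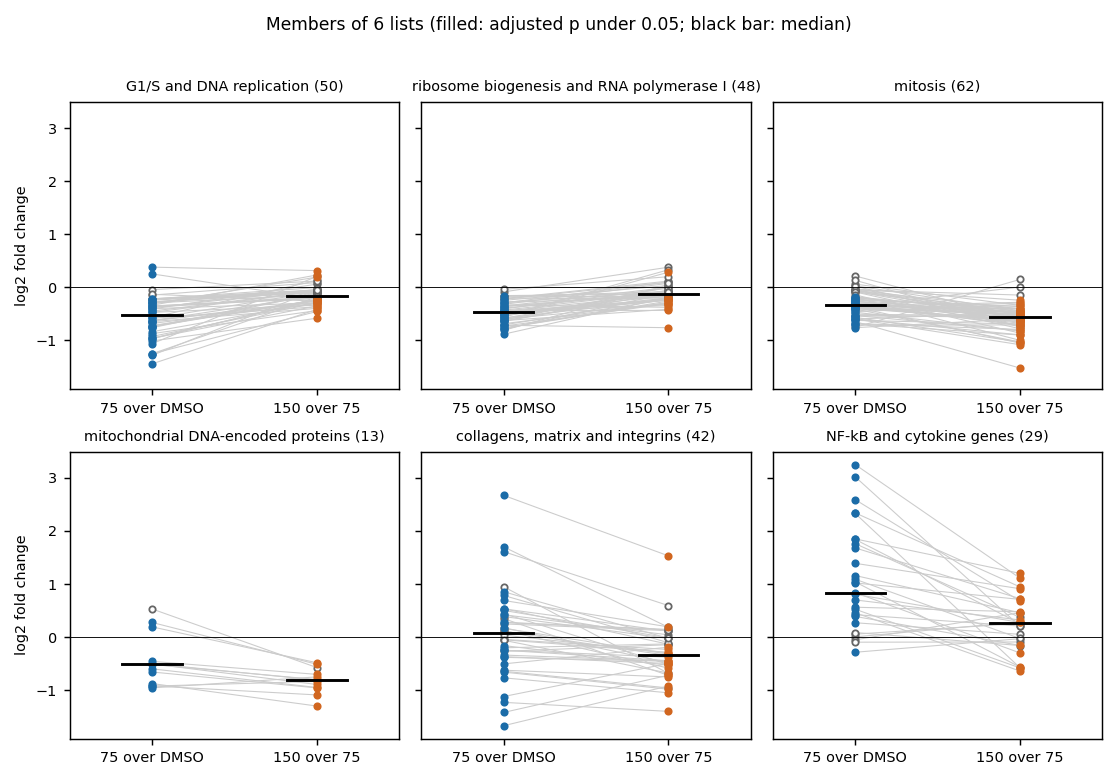
Log2 fold change of each tested member of 6 gene lists in the first and the second step, with lines joining a gene's steps, filled points for an adjusted p under 0.05 and black bars for medians. The medians of DNA replication and ribosome biogenesis genes lie nearer to 0 in the second step, and those of mitosis, mitochondrial and matrix genes lie lower.

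A second body of growth genes had also reached most of its fall at 75 µg/ml. Of 48 genes of ribosome biogenesis and RNA polymerase I, 41 fell in the first step (median -0.47) and 16 fell and 1 rose in the second (median -0.12). Steps differed upwards in 21 members and downwards in none, and 12 members had levelled off (12 of 48, beside 4.21% of all tested genes). DDX21, a nucleolar RNA helicase gene, was at 644 and 631 CPM in DMSO, then 413 and 439 at 75 µg/ml, then 424 and 399 at 150 µg/ml. NOLC1, which encodes a nucleolar phosphoprotein, was at 556 and 520.4 CPM in DMSO, then 310.4 and 312 at 75 µg/ml, then 290.0 and 287 at 150 µg/ml. In both genes the dose libraries lay close together and far below DMSO. RRS1, a ribosome assembly factor gene, was the member that fell furthest in the second step (-0.76, SE 0.107). MYC, a known driver of these genes, turned back: it was at 180.4 and 170.4 CPM in DMSO, then 118 and 120.0 at 75 µg/ml, then 147 and 143 at 150 µg/ml, with steps of -0.56 and then 0.29 (SE 0.0537, edgeR adjusted p = 0.0010). Without replicate 1 at 150 µg/ml, 9 members of the list fell and 7 had levelled off, and 5 had levelled off without replicate 1 at 75 µg/ml. Under total counts 8 had levelled off. Splicing regulators had the same order of medians (-0.37 and -0.14), with 17 of 41 lower and 2 higher in the second step. Of the 41, 6 had levelled off (beside 4.21% of all tested genes), among them SRSF1, SRSF3 and HNRNPA1. Their count of 17 was 10 under total counts, 7 without replicate 1 at either dose and 11 without replicate 2 at 150 µg/ml. Cytosolic ribosomal protein genes were lower in 27 of 75 cases (median -0.12), none with a called difference between the steps, and in 8 cases under total counts and 9 to 14 with any 1 dose library left out. The 27 are 36% called, beside 22.0% of all tested genes.

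Transcripts of the mitochondrial genome, which encodes subunits of the respiratory chain, fell in the second step in 12 of 13 protein genes (median -0.81, after -0.52 in the first step). Of all 16 tested genes of this genome 13 were lower and 2 higher, and the 2 that rose were not protein genes. MT-CO3, a subunit gene of cytochrome c oxidase, was at 5429.5 and 5607 CPM in DMSO, then 3077 and 2938 at 75 µg/ml, then 1088 and 1356 at 150 µg/ml. MT-CO2, another subunit gene of that enzyme, was at 2901 and 2886 CPM at 75 µg/ml against 1401 and 1578 at 150 µg/ml, and MT-ND4, of complex I, at 3985 and 3960.2 CPM at 75 µg/ml against 2088 and 2189 at 150 µg/ml. In all of these genes each dose lay below the one before, and the second steps were -1.30 (SE 0.0678), -0.96 (SE 0.0484) and -0.89 (SE 0.0445), each called steeper than the first. MT-ND1 and MT-ND2 differed from the rest and turned back: MT-ND1 was at 2796 and 2651 CPM in DMSO, then 3116 and 3475 at 75 µg/ml, then 2175 and 2443 at 150 µg/ml, a rise and then a second step of -0.51 (SE 0.0564). Steps differed downwards in 7 of the 13 genes, and the 12 falls were the same in number under total counts and with any 1 library left out. All genes of the mitochondrial genome together held 3.69% and 3.76% of gene counts at 75 µg/ml, against 2.68% and 2.94% at 150 µg/ml. Nuclear copies of this genome share its sequence, and no label says how reads with several matches were treated. Nuclear genes of the respiratory chain moved less, with 20 of 58 lower and none higher (median -0.16), 10 of them under total counts and 11 to 13 with any 1 dose library left out. The 20 are 34.5% called, beside 22.0% of all tested genes. NDUFAF8, a complex I assembly factor gene, was among the 8 largest falls taken by the naming rule, at 19.8 and 20.2 CPM in DMSO, then 18.2 and 29.3 at 75 µg/ml, then 6.41 and 12.6 at 150 µg/ml, but the libraries of each dose differed widely from each other.

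**Figure D3:**
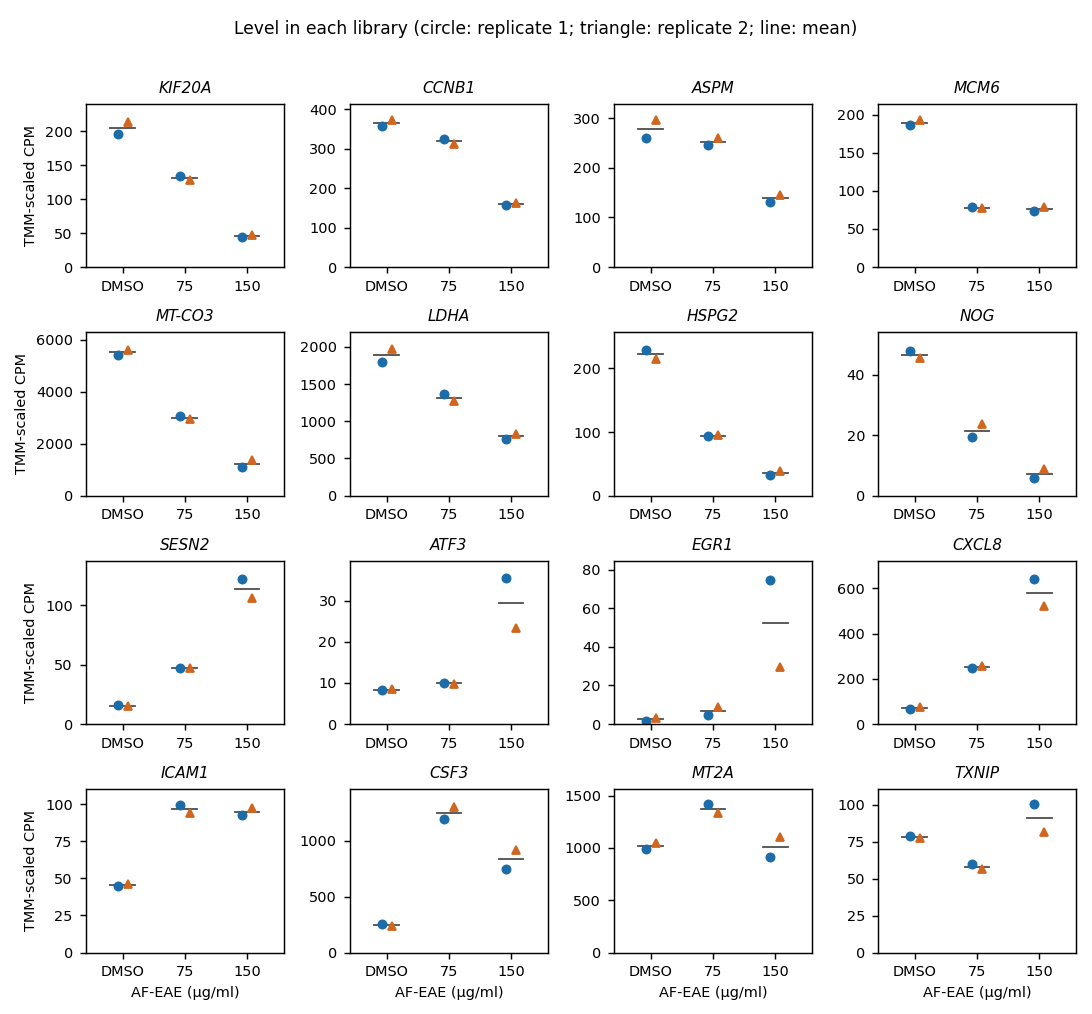
TMM-scaled CPM of 16 genes in each library (circle, replicate 1; triangle, replicate 2) by dose, with a line at the mean. KIF20A, CCNB1 and ASPM drop between 75 and 150 µg/ml, MCM6 and ICAM1 stay level there, and CSF3, MT2A and TXNIP turn back.

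Amino acid stress genes went on rising. Of 34 tested ATF4 targets and integrated stress response genes, 28 rose in the second step and none fell (median 0.53), after 29 rises and 3 falls in the first (median 0.89). SESN2, an inhibitor of growth signalling through mTORC1, was at 15.8 and 15.4 CPM in DMSO, then 47.4 and 47.3 at 75 µg/ml, then 122 and 106 at 150 µg/ml. TRIB3, a pseudokinase gene, was at 45.8 and 50.3 CPM in DMSO, then 133 and 127 at 75 µg/ml, then 251 and 231 at 150 µg/ml. Every dose lay above the one before it in both genes, with second steps of 1.26 (SE 0.076) and 0.89 (SE 0.058) (edgeR adjusted p = 8.5e-09 and 2.0e-08). The second step was called smaller than the first in 12 members, GDF15 and CHAC1 among them, and larger in 5. ATF3, a stress-induced partner of ATF4, was one of those 5: it was at 8.32 and 8.44 CPM in DMSO, then 9.96 and 9.85 at 75 µg/ml, then 35.5 and 23.5 at 150 µg/ml, nearly level from DMSO to 75 µg/ml and clearly higher at 150 µg/ml in both libraries, which differed from each other. Its first step was 0.24 (SE 0.186) and its second 1.57 (SE 0.163), with a difference of 1.33 (edgeR adjusted p = 0.0080). PPP1R15A, the phosphatase subunit that ends the response, and CEBPG also rose more in the second step (0.74 and 0.59). Aminoacyl-tRNA synthetase genes, which charge tRNAs, rose in 10 of 20 cases and fell in 3 (1 without replicate 1 at either dose). The share called was 65%, beside 22.0% of all tested genes, of which 9.51% were higher and 12.5% lower. WARS1 was at 352 and 344 CPM at 75 µg/ml against 495 and 483 at 150 µg/ml and AARS1 at 545 and 533 CPM at 75 µg/ml against 759 and 733 at 150 µg/ml, second steps of 0.49 and 0.47. SLC7A5, a large neutral amino acid transporter gene, was at 662 and 683 CPM at 75 µg/ml against 966 and 913 at 150 µg/ml (0.48, SE 0.0521).

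The promoter of CHAC1, a gene of glutathione breakdown that ATF4 and its partners are known to raise, is shown for its element of the type TGATGNAA (chr15:40953221-40953520, plus strand, RefSeq, GRCh38.p14). Capitals mark the element, which lies on the opposite strand and therefore reads as its reverse complement.
CHAC1: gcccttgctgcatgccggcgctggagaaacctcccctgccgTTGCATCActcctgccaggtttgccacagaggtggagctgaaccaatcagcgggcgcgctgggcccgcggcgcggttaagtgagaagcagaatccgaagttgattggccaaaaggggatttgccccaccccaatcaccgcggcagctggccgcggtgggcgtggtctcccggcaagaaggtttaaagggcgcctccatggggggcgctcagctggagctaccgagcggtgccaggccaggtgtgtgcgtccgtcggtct
CHAC1 was at 3.47 and 6.61 CPM in DMSO, then 27.4 and 25.6 at 75 µg/ml, then 65.8 and 61.1 at 150 µg/ml, a second step of 1.26 (SE 0.123). The letters TGATGNAA were present, on either strand, in 5 of 28 promoters of the list (17.9%), in 3.67% of all promoters and in 1.77% of those of tested genes.

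Genes of the endoplasmic reticulum stress response rose in part: 14 of 30 were higher and 3 lower. DNAJB9, a chaperone cofactor gene, was at 15.3 and 15.8 CPM in DMSO, then 29 and 29.6 at 75 µg/ml, then 68.4 and 56.9 at 150 µg/ml, and HERPUD1 and XBP1 rose by 0.54 and 0.44, while the chaperone gene CALR fell only between the doses (-0.25, the class in 9 of 14 alternative settings). The count of 14 was 9 and 8 without replicate 1 or 2 at 75 µg/ml and 7 without replicate 1 at 150 µg/ml. Of 25 heat shock genes, 2 were higher (HSPB8 and DNAJB2) and 5 lower in this step, which is 28.0% called beside 22.0% of all tested genes, and 6 had levelled off (5 higher under total counts, 2 lower without replicate 1 at 150 µg/ml). NRF2 targets, genes of glutathione and detoxification, rose in 14 of 34 cases and fell in 4 (2 under total counts, 1 without replicate 1 at either dose), and the second step was called smaller than the first in 17 and larger in none. AKR1C1, an aldo-keto reductase gene, was at 1.01 and 2.09 CPM in DMSO, then 4.95 and 5.47 at 75 µg/ml, then 26.8 and 19.1 at 150 µg/ml, a second step of 2.14 (SE 0.203), but its near-identical relatives make its share of reads uncertain. NQO1 and FTL had levelled off, and AKR1B1 turned back downwards (-0.38). Of 9 tested AHR targets, 6 rose in the second step, and the second step was called smaller than the first in 5 of the 9. CYP1B1, the hydroxylase gene known as a direct target, had steps of 3.14 and 0.16. Called shares were 56.7% of the endoplasmic reticulum, 52.9% of the NRF2 and 66.7% of the AHR list. Of all tested genes 9.51% were higher and 12.5% lower.

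More immediate early genes rose in the second step than in the first. Of 38 tested immediate early and MAPK feedback genes, 21 rose and 2 fell in the second step (median 0.29), after 14 rises and 7 falls in the first (median 0.18). Steps differed upwards in 12 and downwards in 4. EGR1, a zinc finger factor gene, was at 1.77 and 3.08 CPM in DMSO, then 4.71 and 8.59 at 75 µg/ml, then 74.8 and 29.7 at 150 µg/ml. Both libraries at 150 µg/ml exceeded all others, and replicate 1 was well above replicate 2. Its second step was 2.97 (SE 0.345, edgeR adjusted p = 6.4e-06), and it did not differ from the first of 1.46 past the threshold (adjusted p = 0.21). DUSP6, an ERK phosphatase gene, changed only between the doses, at 41.5 and 44 CPM in DMSO, then 42.5 and 45.4 at 75 µg/ml, then 70.2 and 61.8 at 150 µg/ml, with a second step of 0.58 (SE 0.0806). DUSP5, a nuclear ERK phosphatase gene, was at 136 and 131 CPM at 75 µg/ml against 205 and 203 at 150 µg/ml, and DUSP1, which acts on stress kinases, at 44.9 and 46.1 CPM at 75 µg/ml against 107 and 81.9 at 150 µg/ml, and in both the second step was called larger than the first. EREG, the gene of the EGF receptor ligand epiregulin, was at 14.3 and 16.5 CPM in DMSO, then 63.8 and 64.9 at 75 µg/ml, then 166 and 143 at 150 µg/ml, a second step of 1.26 (SE 0.0752). JUN and KLF6, like MYC, fell and then rose: JUN was at 263 and 225 CPM in DMSO, then 183 and 186 at 75 µg/ml, then 243 and 215 at 150 µg/ml. FOSL2 fell only between the doses (-0.55), and SPRY1, an inhibitor of growth factor signalling, fell in both (-0.69 and -0.79). Replicate 1 at 150 µg/ml was the higher of the pair in EGR1, ATF3, DUSP6, DUSP1, EREG and JUN, and without it 12 members of the list rose. Of the 38 members, 4 changed only between the doses and 3 turned back, beside 1.01% and 2.26% of all tested genes. These were 1 and 1 without replicate 1 at 150 µg/ml, under total counts 2 and 4, with FOSL2 among those that turned back, and without replicate 1 at 75 µg/ml 1 and 3.

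EGR1 is known as a target of serum response factor through CArG boxes, and its promoter (chr5:138465229-138465528, plus strand, RefSeq, GRCh38.p14) is shown with those it holds in capitals.
EGR1: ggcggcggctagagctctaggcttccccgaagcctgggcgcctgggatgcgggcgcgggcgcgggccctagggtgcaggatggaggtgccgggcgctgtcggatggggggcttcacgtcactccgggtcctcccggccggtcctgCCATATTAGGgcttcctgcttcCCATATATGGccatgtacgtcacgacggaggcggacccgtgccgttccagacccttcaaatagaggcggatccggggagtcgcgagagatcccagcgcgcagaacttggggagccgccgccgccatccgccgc
A CArG box was present in 1.29% of all promoters and in 1.00% of those of tested genes, and in 1 of 31 promoters of the immediate early list, that of EGR1.

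Cytokine genes under NF-kB split into those that went on rising and those that turned back. Of 29 tested, 12 rose and 6 fell in the second step (median 0.26), after 23 rises and 1 fall in the first (median 0.84), and 6 turned back (6 of 29, beside 2.26% of all tested genes). CXCL8, the gene of interleukin 8, was at 65.9 and 74.8 CPM in DMSO, then 248 and 258 at 75 µg/ml, then 640.4 and 521 at 150 µg/ml. IL24 was at 7.56 and 6.87 CPM in DMSO, then 64.5 and 72.6 at 75 µg/ml, then 151 and 146 at 150 µg/ml. Both rose at each dose without overlap, with second steps of 1.20 (SE 0.0738) and 1.11 (SE 0.0676) (edgeR adjusted p = 1.1e-08 and 8.5e-09). Each was called smaller than the first on the log2 scale, though in CPM neither gain was smaller. IL1B, the gene of an inflammatory interleukin, was at 92 and 87.9 CPM at 75 µg/ml against 141 and 147 at 150 µg/ml, and IL1A, CXCL2 and CXCL3 rose by 0.72, 0.94 and 0.91. CSF3, the gene of the granulocyte colony-stimulating factor, was instead at 255 and 240.1 CPM in DMSO, then 1189 and 1298 at 75 µg/ml, then 746 and 919.5 at 150 µg/ml, a first step of 2.33 and then a second of -0.58 (SE 0.0709, edgeR adjusted p = 1.8e-05). At 150 µg/ml it was still above DMSO in both libraries. CXCL1, a neutrophil chemokine gene, was at 54.4 and 46.9 CPM in DMSO, then 103 and 105 at 75 µg/ml, then 68.6 and 71.7 at 150 µg/ml, and CSF1, the macrophage factor gene, at 59 and 69.4 CPM in DMSO, then 90.6 and 85.6 at 75 µg/ml, then 51.1 and 61.9 at 150 µg/ml. NFKBIA, the inhibitor gene that NF-kB itself raises, was at 93.7 and 87.1 CPM in DMSO, then 140.0 and 120.1 at 75 µg/ml, then 74.8 and 98.9 at 150 µg/ml, and IL11 and TNIP1 were the other members that turned back (-0.30 and -0.16). ICAM1, an adhesion molecule gene, had levelled off at 44.7 and 46 CPM in DMSO, then 99.2 and 94.1 at 75 µg/ml, then 92.4 and 97.3 at 150 µg/ml. CSF3, CXCL1, CSF1, NFKBIA, IL11 and ICAM1 kept their class in all 14 alternative settings, and TNIP1 in 9 of 14.

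Interferon-stimulated genes, which had risen in 30 of 43 cases in the first step (median 0.85), rose in 12 and fell in 4 in the second (median 0.17), and the second step was called smaller in 15 and larger in none. Of all tested genes 9.51% were higher and 12.5% lower, and the 4 lower of 43 do not exceed that share. The difference between the steps was called downwards in 7.40% of all tested genes. OASL was at 6.91 and 6.31 CPM at 75 µg/ml against 16.3 and 13.6 at 150 µg/ml (1.18, SE 0.161), and GBP1 and OAS3 turned back (-0.36 and -0.30). The count of 4 lower was 1 or 2 with any 1 dose library left out. The metallothionein genes MT1E, MT1F and MT2A, whose products bind zinc and copper, fell in the second step. MT2A was at 986 and 1043 CPM in DMSO, then 1421 and 1333 at 75 µg/ml, then 910.0 and 1108 at 150 µg/ml, and its libraries at 150 µg/ml lay on either side of those in DMSO. Its steps were 0.44 and -0.45 (SE 0.0665), opposite in direction and both called (edgeR adjusted p of the second 0.00012). MT1E changed only between the doses, at 138 and 141 CPM in DMSO, then 146 and 139.7 at 75 µg/ml, then 80.7 and 93.6 at 150 µg/ml (-0.71, SE 0.0653), and MT1F turned back (-0.60). Metallothioneins resemble each other closely, so reads may be split among them. MT2A and MT1E kept their class in all 14 alternative settings.

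Matrix genes had moved both ways in the first step and moved downwards in the second. Of 42 collagens, other matrix genes and integrins, 24 fell and 2 rose (median -0.33; 5 rose under total counts), after 14 rises and 15 falls in the first step (median 0.07). The difference between the steps was called downwards in 17 and upwards in 4. HSPG2, the gene of the basement membrane proteoglycan perlecan, was at 228 and 216 CPM in DMSO, then 93 and 96.1 at 75 µg/ml, then 32.7 and 38.9 at 150 µg/ml. COL13A1, a transmembrane collagen gene, was at 159 and 164 CPM in DMSO, then 100 and 104 at 75 µg/ml, then 48.6 and 54.9 at 150 µg/ml. Each dose lay below the one before it without overlap, and the second steps were -1.40 (SE 0.075) and -0.98 (SE 0.0664) (edgeR adjusted p = 2.3e-09 and 2.8e-08). COL5A1, ITGB4, TNC and ITGAV fell only between the doses (-0.68, -0.59, -0.35 and -0.30), a class that COL5A1 kept in 7 of 14 alternative settings, ITGB4 in 6 of 14, and TNC and ITGAV in 11 each. No member was in it without replicate 1 at 75 µg/ml and 2 were without replicate 1 at 150 µg/ml, and under total counts ITGB4, TNC and ITGAV were among 7 that turned back. COL6A1 turned back, at 30.3 and 30.3 CPM in DMSO, then 40.8 and 41.6 at 75 µg/ml, then 28.9 and 28.7 at 150 µg/ml, and so did LAMC1 (-0.32). The 2 members that rose were LAMB3 and MMP3, the stromelysin gene, which was at 0.820 and 0.916 CPM in DMSO, then 5.62 and 5.47 at 75 µg/ml, then 17 and 15 at 150 µg/ml (1.53, SE 0.162). MMP14, ITGA2 and ITGA5 had levelled off after a rise.

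Targets of YAP and TAZ, the factors that the Hippo kinases restrain, had all but 1 fallen in the first step (25 of 26, median -0.76), and 15 fell and 1 rose in the second (median -0.34). The difference between the steps was called upwards in 15 and downwards in none. ANKRD1, which encodes an ankyrin repeat protein used as a readout of these factors, was at 534 and 534 CPM in DMSO, then 144 and 140.5 at 75 µg/ml, then 70.2 and 68.3 at 150 µg/ml, a second step of -1.04 (SE 0.0521). CRIM1 was at 361 and 363 CPM at 75 µg/ml against 227 and 240.1 at 150 µg/ml (-0.63, SE 0.047). TEAD1, the gene of a DNA-binding partner of YAP, had levelled off at 591 and 621 CPM in DMSO, then 352 and 363 at 75 µg/ml, then 348 and 319 at 150 µg/ml, and IGFBP3 turned back upwards (0.50). Actin cytoskeleton genes fell in 16 of 29 cases and rose in 1 (median -0.20), 9 of them without replicate 1 at 150 µg/ml. ACTB was at 3033 and 2957 CPM at 75 µg/ml against 2039 and 2140.3 at 150 µg/ml and ACTG1 at 1541 and 1488 CPM at 75 µg/ml against 1072 and 1099.6 at 150 µg/ml (-0.52 and -0.48), both genes with close relatives. Tubulin genes fell in 6 of 12 cases and rose in 1, with TUBB4B at 849 and 826 CPM at 75 µg/ml against 596 and 597 at 150 µg/ml and TUBA1C at 375 and 374 CPM at 75 µg/ml against 277 and 289 at 150 µg/ml (-0.49 and -0.40). The reference genes ACTB and GAPDH were thus among those that fell, as were 10 of 27 genes often used as references. Called shares were 58.6% of actin cytoskeleton, 58.3% of tubulin and 40.7% of reference genes, beside 22.0% of all tested genes.

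In the list of TGF-beta and BMP targets 8 fell and 3 rose of 23 (median -0.06, 0.0049 under total counts), and those that fell furthest were SMAD6, NOG, TGFB2, ID1 and ID3. The share called was 47.8%, beside 22.0% of all tested genes, of which 9.51% were higher and 12.5% lower. TGFB2, the gene of a TGF-beta ligand, was at 61.2 and 70.0 CPM in DMSO, then 15.5 and 16.3 at 75 µg/ml, then 5.20 and 6.15 at 150 µg/ml (-1.48, SE 0.139). NOG, the gene of the secreted BMP antagonist noggin, was at 48 and 45.4 CPM in DMSO, then 19.3 and 23.8 at 75 µg/ml, then 5.68 and 8.88 at 150 µg/ml (-1.56, SE 0.164, edgeR adjusted p = 2.7e-06). Both were lower at each dose than at the one before, without overlap. ID1, which encodes an inhibitor of basic helix-loop-helix factors and is raised by BMP, was at 70.8 and 68.7 CPM in DMSO, then 75.4 and 70.7 at 75 µg/ml, then 24.7 and 40.6 at 150 µg/ml, and its second step of -1.16 (SE 0.136) followed a first step that was not called (0.07). ID3, its relative, had a second step of -0.98, and SMAD6, an inhibitor of BMP signalling at 1.16 and 0.961 CPM at 75 µg/ml against 0.363 and 0.232 at 150 µg/ml, of -1.81. TGFBR3, the gene of the co-receptor betaglycan, had the largest fall among genes with a symbol that changed only between doses, at 83.8 and 91.3 CPM in DMSO, then 93.9 and 92 at 75 µg/ml, then 40.6 and 51.8 at 150 µg/ml (-1.01, SE 0.0885, edgeR adjusted p = 5.0e-07). Without replicate 1 at 75 µg/ml 5 members of the list fell, and without replicate 2 there 1 rose.

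Glycolysis genes fell in 15 of 25 cases and rose in 4 (median -0.24), after 11 falls and 7 rises in the first step (median -0.13). LDHA, the gene of a lactate dehydrogenase subunit, was at 1803 and 1976 CPM in DMSO, then 1364 and 1272 at 75 µg/ml, then 760.0 and 834 at 150 µg/ml. The 2 doses were apart by far more than the pairs of libraries, with a second step of -0.73 (SE 0.0543, edgeR adjusted p = 8.8e-08). PKM, GPI, ENO1 and PGAM1 fell too, with second steps of -0.47, -0.43, -0.42 and -0.39. HKDC1, which encodes a hexokinase-like enzyme, moved the other way, at 6.11 and 6.42 CPM in DMSO, then 26.6 and 23 at 75 µg/ml, then 60.6 and 54.8 at 150 µg/ml (1.22, SE 0.0965). TXNIP, the gene of a protein that restrains glucose uptake, turned back upwards, at 79.1 and 77.6 CPM in DMSO, then 59.8 and 56.6 at 75 µg/ml, then 100.3 and 81.5 at 150 µg/ml, with steps of -0.43 and 0.64 (SE 0.0831). Hypoxia targets were mixed, with 6 higher and 9 lower of 29 (51.7% called, beside 22.0% of all tested genes). In the lysosome and autophagy list, 13 of 45 tested genes rose and 8 fell (46.7% called). The rises were led by genes of the autophagosome, GABARAPL1 at 45 and 44.1 CPM at 75 µg/ml against 98.5 and 84.1 at 150 µg/ml and MAP1LC3B at 349.9 and 333 CPM at 75 µg/ml against 633 and 568 at 150 µg/ml, while the cathepsin genes CTSA and CTSZ turned back downwards by small steps (-0.26 and -0.22). CTSB and CTSD did so too (-0.14 and -0.16), but both had levelled off under total counts, with an offset for GC content and without replicate 1 at 150 µg/ml. In all 6 members of the list turned back and 5 had levelled off, with 4 and 10 under total counts, 5 and 8 with the offset, and 2 turned back without replicate 1 at either dose. Of all tested genes 2.26% turned back and 4.21% had levelled off. Of the 5 list members that had levelled off, TPP1, the gene of a lysosomal peptidase, kept its class in 14 of 14 alternative settings. The 8 falls of the list were 4 under total counts and 2 to 5 with any 1 dose library left out.

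Of 31 p53 targets, 12 rose and 3 fell (1 fell under total counts or without replicate 1 at either dose), and MDM2, whose product degrades p53, rose only between the doses (0.27). Among 32 genes of the BCL2 family and caspases 11 rose and 2 fell. The share called was 48.4% of the p53 targets and 40.6% of the BCL2 list, beside 22.0% of all tested genes. MCL1, a survival gene, changed only between the doses, at 589 and 556 CPM in DMSO, then 540.0 and 552 at 75 µg/ml, then 699 and 685 at 150 µg/ml (0.34, SE 0.0446), and kept that class in 14 of 14 alternative settings. PMAIP1 and BBC3, genes of killer proteins of the family, rose by 0.86 and 0.52, and BCL2L11 turned back upwards (0.47). Without replicate 1 at 75 or at 150 µg/ml 7 p53 targets rose, and the 11 of the BCL2 list were 5 to 7 with any 1 dose library left out. In the lipid lists 37.0% of cholesterol and 30.4% of fatty acid synthesis genes were called. Of all tested genes 9.51% were higher and 12.5% lower. Cholesterol synthesis had 4 higher and 6 lower of 27, and fatty acid synthesis 2 higher and 5 lower of 23. Without replicate 1 at 150 µg/ml these were 0, 3, 1 and 3. LPIN1, the gene of a phosphatidate phosphatase, rose only between the doses, at 264 and 276 CPM in DMSO, then 263 and 256 at 75 µg/ml, then 348 and 367 at 150 µg/ml (0.46, SE 0.0484), in all 14 alternative settings. Circadian clock genes rose in 7 of 17 cases and fell in 1, with NR1D2 at 106 and 107 CPM at 75 µg/ml against 143 and 136 at 150 µg/ml, a change only between the doses, and in 4 cases without replicate 2 at 150 µg/ml. The proteasome list had 1 higher and 2 lower of 33 (median -0.03, 0.03 under total counts). Called shares were 47.1% of clock and 9.09% of proteasome genes, beside 22.0% of all tested genes.

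**Figure D4:**
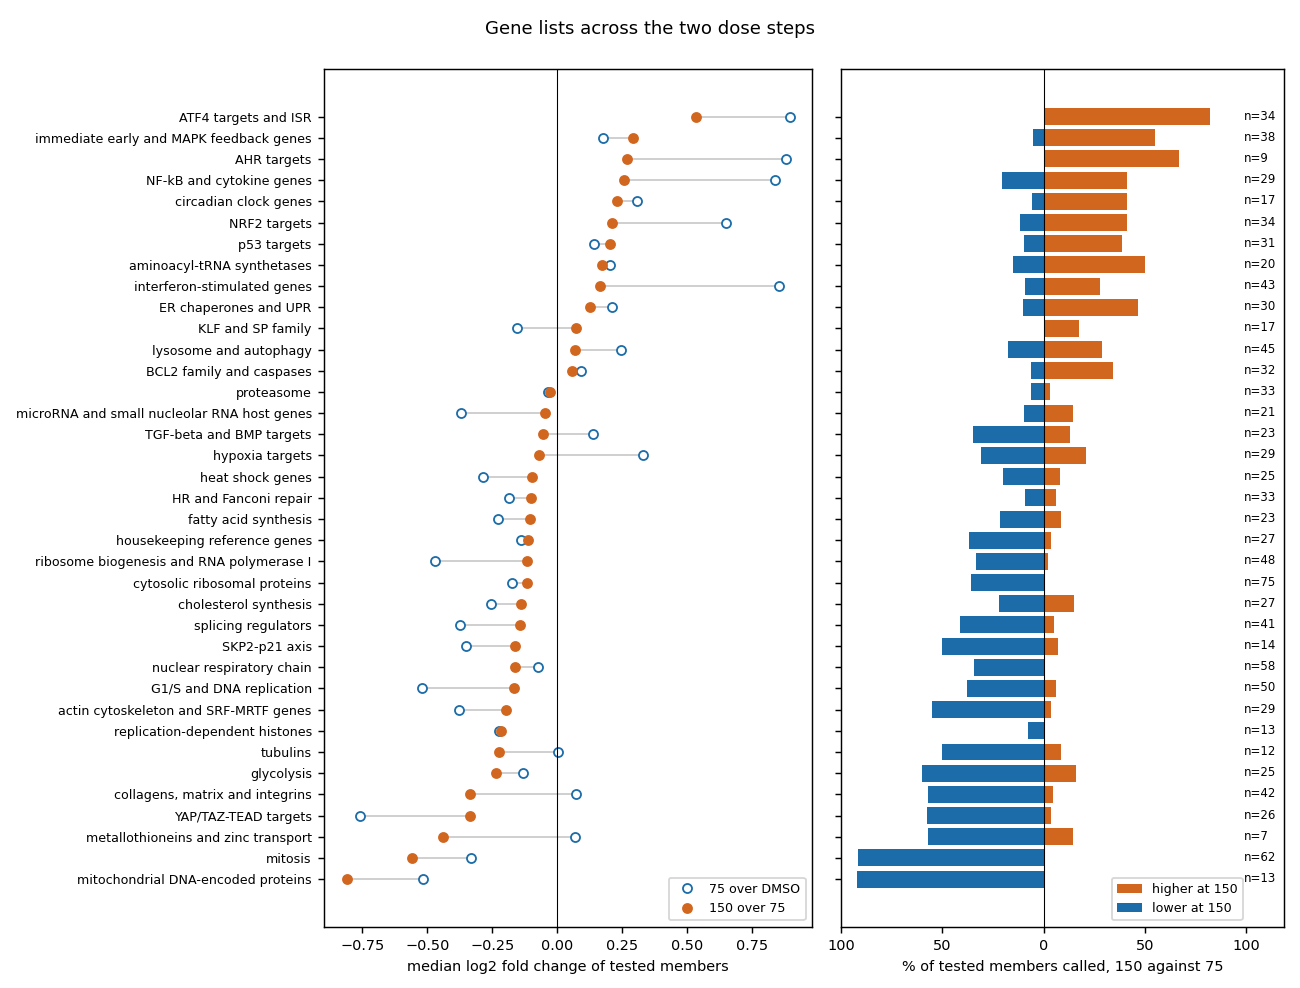
Left, median log2 fold change of the tested members of each gene list in the first step (open circles) and the second (filled circles). Right, share of tested members called higher or lower at 150 than at 75 µg/ml, with the number tested (n). Mitosis genes and protein genes of the mitochondrial genome reach 91.9% and 92.3% called, all lower, and ATF4 targets 82.4%, all higher.

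Among the 157 genes that changed only between doses, 67 rose (0.430% of tested genes, median second step 0.37) and 90 fell (median -0.42). The largest rises were in TXNL4B, which encodes a thioredoxin-like splicing protein, ODR4, RBM18, DUSP6 and ARG2, the mitochondrial arginase gene. TXNL4B was at 33.8 and 33.6 CPM in DMSO, then 34.5 and 37.3 at 75 µg/ml, then 58.8 and 55.8 at 150 µg/ml, a second step of 0.67 (SE 0.079, edgeR adjusted p = 1.1e-05). ODR4, RBM18 and ARG2 rose by 0.64, 0.62 and 0.56. The largest falls were in TGFBR3, TNFAIP8L1, TRIB2, ASPM and NEK2. TNFAIP8L1 was at 16.3 and 15.2 CPM in DMSO, then 15.9 and 15 at 75 µg/ml, then 7.37 and 8.01 at 150 µg/ml (-1.0, SE 0.134), and TRIB2, a pseudokinase gene, was at 53.1 and 69.7 CPM in DMSO, then 59.9 and 55.5 at 75 µg/ml, then 27.9 and 34 at 150 µg/ml (-0.90, SE 0.115). DMSO and 75 µg/ml overlapped in both, and 150 µg/ml lay below. By the calls of each step alone 1345 genes would have this pattern. Under total counts 193 genes were in the class, 48 of them shared with the 157, and without replicate 1 at 75, replicate 2 at 75 or replicate 1 at 150 µg/ml there were 28, 52 and 61. In all 14 alternative settings 7 of the 157 kept the class, and of the 10 just named NEK2 kept it in 13 of 14 and TGFBR3 and TXNL4B in 12 each. ASPM and DUSP6 kept it in 10 each, ODR4 in 9, TRIB2 in 7, and RBM18 and ARG2 in 6 of 14 each. Under total counts TGFBR3, TXNL4B, RBM18, DUSP6 and ARG2 were not in the class.

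Of the 657 genes that had levelled off, 281 had risen (1.80%, median first step 0.57) and 376 had fallen (2.41%, -0.44); under total counts 428 had risen and 229 had fallen, and with DESeq2 137 and 320. The largest levelled rises were in FBXO32, which encodes the ubiquitin ligase subunit atrogin-1, STC1, the gene of the hormone stanniocalcin, IQSEC2, an activator of ARF GTPases, ANK2, an ankyrin gene, and CCDC18-AS1, an antisense RNA. STC1 was at 66.6 and 90.6 CPM in DMSO, then 239.7 and 253 at 75 µg/ml, then 263 and 269 at 150 µg/ml, with steps of 1.65 (SE 0.0888) and 0.11 (SE 0.0815, edgeR adjusted p of the second 0.38). FBXO32 was at 5.93 and 4.52 CPM in DMSO, then 17.8 and 16.6 at 75 µg/ml, then 18.5 and 16.4 at 150 µg/ml, IQSEC2 at 19.3 and 17.1 CPM at 75 µg/ml against 16.5 and 19.8 at 150 µg/ml and ANK2 at 43.5 and 43.5 CPM at 75 µg/ml against 45.1 and 48.1 at 150 µg/ml, and CCDC18-AS1 had steps of 1.26 and 0.05. In each of these the dose libraries were within a narrow band well above DMSO, but none of the 5 was in the class under total counts. The largest levelled falls were in FAM111B, GPRC5A, an orphan receptor gene, MCM6, the zinc finger pseudogene ZNF702P and FRMD6, which encodes a FERM protein upstream of the Hippo kinases. FAM111B was at 82.2 and 82.5 CPM in DMSO, then 28.8 and 29.9 at 75 µg/ml, then 27.5 and 27.5 at 150 µg/ml and FRMD6 at 561 and 516 CPM in DMSO, then 243 and 243 at 75 µg/ml, then 245 and 219 at 150 µg/ml. GPRC5A was at 285 and 290.3 CPM in DMSO, then 103 and 108 at 75 µg/ml, then 123 and 99.8 at 150 µg/ml, and without replicate 2 at 150 µg/ml its second step was called, at 0.23 (edgeR adjusted p = 0.03). ZNF702P, at 13.1 and 15 CPM at 75 µg/ml against 15.5 and 13.4 at 150 µg/ml, was not in the class under total counts. EGFR, the gene of the epidermal growth factor receptor, had levelled off at 357 and 339 CPM in DMSO, then 241 and 234 at 75 µg/ml, then 231 and 221 at 150 µg/ml. Of all 657 genes, 92 kept the class in all 14 alternative settings, MCM6, FRMD6 and EGFR among them; the class held 238 to 702 genes with 1 library left out, and 3927 genes by the calls of each step alone.

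Of the 352 genes that turned back, 213 rose and then fell (1.37%) and 139 fell and then rose (0.892%). The total change from DMSO to 150 µg/ml was still called in the first direction in 74, was not called in 256 and was called in the opposite direction in 22. Among the largest returns after a rise were those of RIPOR3, SLCO4A1, an organic anion transporter gene, FAM20C, a kinase gene of the secretory pathway, and B3GNTL1. RIPOR3 was at 65.9 and 90.8 CPM in DMSO, then 111 and 124 at 75 µg/ml, then 48 and 69.1 at 150 µg/ml, a second step of -1.0 (SE 0.133, edgeR adjusted p = 3.9e-05). SLCO4A1, FAM20C and B3GNTL1 had second steps of -0.91, -0.83 and -0.80.

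The largest returns after a fall were in RND3, which encodes a GTPase that opposes RhoA, GADD45A, a growth arrest gene, TXNIP, TUFT1 and SH3RF1, the gene of a ubiquitin ligase that scaffolds JNK signalling. RND3 was at 58.4 and 59.8 CPM in DMSO, then 43.9 and 46.3 at 75 µg/ml, then 85.7 and 65.3 at 150 µg/ml, and GADD45A at 121 and 109.5 CPM in DMSO, then 90.9 and 90.5 at 75 µg/ml, then 166 and 134 at 150 µg/ml. At 150 µg/ml both libraries of these genes were above those at 75 µg/ml and above DMSO, with replicate 1 the higher. Their second steps were 0.74 (SE 0.0986) and 0.72 (SE 0.0806) (edgeR adjusted p = 3.9e-05 and 6.4e-06). TUFT1 was at 37.7 and 36 CPM in DMSO, then 26.9 and 27 at 75 µg/ml, then 46.2 and 36.5 at 150 µg/ml, and SH3RF1 at 46.3 and 39.7 CPM in DMSO, then 32.7 and 29.5 at 75 µg/ml, then 49.4 and 43.9 at 150 µg/ml. At 150 µg/ml replicate 2 lay within the range of DMSO in both genes and replicate 1 above it. RND3, GADD45A, TXNIP, TUFT1, SH3RF1 and B3GNTL1 kept the class in all 14 alternative settings, as did 50 of the 352 genes.

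Genes that turned back, levelled off or changed only between doses differed in GC content by direction. The part of GC in the result was not tested beyond the offset given here. Median GC content was 56.0% in genes that rose and then fell and 43.9% in those that fell and then rose, beside 47.9% for all tested genes. It was 53.2% and 43.9% for levelled rises and falls, and 44.7% and 51.4% for rises and falls only between doses. Genes that changed further had 48.7% where rising and 48.4% where falling. Across genes, the second step had a Spearman correlation with GC of -0.136 and the first of 0.103, and the difference between replicates 1 and 2 had one of -0.127 at 150 µg/ml and of 0.214 in DMSO (10716 genes, which are not independent replicates). With an offset for GC fitted in each library, 335 genes turned back, 172 after a rise and 163 after a fall, and 268 of them were among the 352. The same offset gave 690 levelled-off genes, 255 after a rise and 435 after a fall. It gave 155 genes only between doses, 101 of them among the 157. Under total counts 340 turned back, 205 of them shared. The count was 167 and 208 without replicate 1 or 2 at 75 µg/ml, 104 without replicate 1 at 150 µg/ml and 192 with DESeq2, all 192 shared.

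Among the largest changes of the second step not yet described, INTS3, which encodes a subunit of the Integrator complex, had the largest rise of the named genes, at 3.28 and 1.24 CPM in DMSO, then 1.34 and 0.901 at 75 µg/ml, then 30.6 and 12.8 at 150 µg/ml (4.26, SE 0.5, edgeR adjusted p = 1.5e-06), with replicates at 150 µg/ml that differed from each other by more than 2-fold. F2RL2, a protease-activated receptor gene, was at 0.883 and 1.51 CPM in DMSO, then 7.95 and 7.27 at 75 µg/ml, then 20.7 and 19.6 at 150 µg/ml (1.40, SE 0.153). PIF1, a DNA helicase gene, was at 28.9 and 29.2 CPM in DMSO, then 18.9 and 21.3 at 75 µg/ml, then 6.95 and 9.40 at 150 µg/ml (-1.29, SE 0.141), a fall steeper than its first step of -0.53 (edgeR adjusted p of the difference 0.033). By kind of gene, 10.8% of 12377 protein-coding genes were higher and 15.1% lower at 150 than at 75 µg/ml, while long intergenic RNAs were higher in 5.35% and lower in 2.75% of 691 cases. Antisense RNAs were higher in 3.02% and lower in 1.51% of 928 cases, and pseudogenes in 4.2% and 3.3% of 880. These shares were not adjusted for expression level.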

How the data were processed

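RNA profiles of 6 libraries (MDA-MB-231, 24 h; DMSO, 75 and 150 µg/ml AF-EAE, 2 each) were used. The authors deposited raw read counts per gene, made with HISAT2 2.2.1, HTSeq 2.0.2 and build hg38, per the submitters' processing notes; neither strand, counting options nor annotation release is given in the sources used here, and a gene and its antisense partner cannot be told apart. The 5 summary rows were dropped: reads outside genes made up 6.32% to 7.98% and reads on overlapping genes 10.95% to 11.48%. Symbols covered 99.94% of counts. Coordinates of genes are those of GENCODE 29 (hg38).

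Counts were fitted with edgeR 4.0.16 in R 4.3.3 (TMM, default filter by group, quasi-likelihood F-test, Benjamini-Hochberg adjustment) over all 6 libraries with 1 mean per group, leaving 15589 genes tested and 45062 removed. Dispersion was 0.00258 (coefficient of variation 5.08%), with 3 residual and 13.8 prior degrees of freedom. SE and 95% intervals are those of the quasi-likelihood fit. The procedure was also run on simulated data in which few genes changed, which does not test the choice of scaling. The main fit did not pair libraries by replicate number.

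The members, the 42 hand-written lists (1240 symbols, 1239 on a row, 1119 tested) and the tests were chosen with earlier results of these data known. Lists are described by counts and medians, with no test. Named genes are SKP2 and CDKN1A; the 8 largest rises and 8 largest falls (adjusted p under 0.05, mean of 10 CPM, no overlap); per class and direction the 5 largest of mean 10 CPM or more; and the 2 smallest p in each of the 14 lists with the largest share called. Some genes that the rule or the lists take are not reported here.

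Alternatives were DESeq2 size factors or total counts for scaling, no filter, 5 CPM in 2 libraries, DESeq2 1.42.0, limma-voom (limma 3.58.1), only the 4 dose libraries, a block for the replicate number, 1 library left out at a time, an adjusted p of 0.01, a log2 change of 1 or more, a flat interval of 1.5-fold or none, and a GC offset chosen after seeing the data.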

Additional observations from a re-analysis of the deposited data

How the results depend on the processing

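With 2 libraries a group, leaving 1 out leaves a lone library that is assumed to vary like the others, and most counts shrink. The range with 1 library left out was 1490 to 3669 genes changed between 75 and 150 µg/ml, 873 to 2189 with a step difference, 28 to 177 changed only between doses, 238 to 702 levelled off, 104 to 356 turned back and 965 to 1699 changed further. Counts lower by over 1.5 times came without either 75 µg/ml library (873 and 993 step differences, 28 and 52 only between doses, 238 and 259 levelled off, 167 and 208 turned back, 1022 and 1057 further) and without replicate 1 at 150 µg/ml (1279, 61, 414, 104 and 965), and 431 levelled off without replicate 2 there. At an adjusted p of 0.01 the counts were 1883, 987, 51, 352, 125 and 1026 in the same order. A change of 1 or more on the log2 scale held for 226 genes. DESeq2 gave 94 genes only between doses and 192 turned back. Calls of each step alone gave 1345 and 3927.

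With the replicate number as a block the counts were 3776, 2499, 217, 776, 423 and 1906, each above the main count and within 1.5 times of it. Deviations of same-numbered libraries correlated at 0.00373 between the doses and at 0.0412 and 0.059 with DMSO. With 2 libraries a group, these values cannot settle whether the replicate numbers pair the libraries. Of 1120 values of the 70 named genes across the alternatives, 1115 kept their direction and side of the threshold and 0 reversed; the value of GPRC5A that did not is given with the gene. The median of the list of microRNA and small nucleolar RNA host genes was -0.05, and 0.01 under total counts. Depth limits genes near 1 CPM, where 3 counts equal 0.183 to 0.192 CPM. The cause of each shift was not tested.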
